A study of Homo sapiens with 20 samples.

Results

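The kallikrein-related peptidases are a family of secreted serine proteases, and 7 of them, KLK5, KLK6, KLK7, KLK8, KLK10, KLK11 and KLK13, were followed here in breast cancer cells treated with epidermal growth factor (EGF). They were taken by name, with earlier results of these data known. They make up 7 of the 60271 genes in the expression table and 7 of the 16 genes of the family on chromosome 19, a pseudogene included. The cells were MDA-MB-468, an epithelial triple negative breast cancer line with a very high level of the EGF receptor. The protocol gives 24 h in culture and 24 h of serum starvation before EGF. Cells were either left untreated (control) or given EGF at 50 ng/mL, with 12 h, 24 h, 48 h or 72 h left until collection. Each of these 5 groups had 4 biological replicates, giving 20 mRNA libraries. The labels give 1 shared seeding and 1 shared collection for the 5 groups, EGF having been added earlier for the longer treatments. On that schedule a shorter EGF treatment would mean a longer serum starvation before EGF, so EGF time and starvation cannot be told apart. The data come from 1 cell line, and the labels do not say whether the replicates of a group were separate cultures beyond calling them biological, so p-values measure the spread between these libraries.

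Kallikreins are made as inactive precursors, secreted, and switched on when a short leading peptide is cut off, often by another kallikrein. KLK5 is trypsin-like and KLK7 chymotrypsin-like, and in the outer skin both cut the proteins that hold dead cells together, such as corneodesmosin and the desmogleins. Dedicated inhibitors, among them the product of SPINK5, hold them in check, and several kallikreins can cut protease-activated receptors on the cell surface. In epithelial tumours, kallikreins have been studied as markers and as proteases that act on the pericellular matrix.

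The libraries held between 15611961 and 25856953 counts assigned to genes (median 20398047), of which mitochondrial genes took 7.69 to 16.9%. Replicates of a group differed by 3.53 to 57.5 times the variance of sampling noise over 30 pairs, so none was a copy of another. Of 8 epithelial markers, EPCAM, CDH1, KRT5, KRT8, KRT18, KRT19 and EGFR were at 83.0 CPM or more in every library. CPM are counts scaled to the TMM-adjusted library size. EPCAM stood at 138 to 225 CPM and EGFR at 3360 to 12100 CPM, while KRT14 was lower, at 5.67 to 41.2 CPM. The progesterone receptor gene PGR had no count in any library. ESR1 and ERBB2, also listed as low in triple negative cells, were read at 1.91 to 6.53 and 7.79 to 24.6 CPM. Of 8 markers of fibroblasts, blood and endothelial cells, COL1A2, DCN, PTPRC, CD3E and VWF had at most 9 counts in any library, while COL1A1 (5.0 to 14.8 CPM), CD14 (0.861 to 6.7 CPM) and PECAM1 (0.221 to 5.17 CPM) were read at a low level.

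The 7 genes lie on the minus strand of chromosome 19 within a cluster of 265.1 kb (chr19:50819148-51084245, hg38, GENCODE release 29). KLK5 (chr19:50943303-50953093, ENSG00000167754), KLK6 (chr19:50958631-50969673, ENSG00000167755) and KLK7 (chr19:50976482-50984099, ENSG00000169035) follow each other, then KLK8 (chr19:50996007-51002711, ENSG00000129455), KLK9, which was not among the 7, and KLK10 (chr19:51012739-51020175, ENSG00000129451). KLK11 (chr19:51022216-51028039, ENSG00000167757) comes next, and KLK13 (chr19:51056206-51065114, ENSG00000167759) lies after KLK12. KLK8 shares 40.05% of its exon bases with AC011473.4, a read-through gene on the same strand that runs on into KLK9, and 93.69% of the exon bases of KLK9 lie in that gene. Counts of KLK8 and KLK9 are therefore uncertain, since reads in the shared exons could be given to any of these genes. The exons of KLK5 and KLK6 overlap the antisense gene AC011483.2, by 12.22% and 20.29% of their bases, and KLK10 overlaps AC011473.2 by 6.23%. Both antisense genes had 0 counts in all 20 libraries.

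Because several of these neighbours moved together, the 250 bases before the RefSeq start sites (GRCh38.p14) of KLK5, KLK6, KLK7 and KLK10 are shown, with capitals marking the letters of any of 6 motifs searched on both strands in the 300 bases from 250 before to 50 after the start. The motifs were AP-1 (TGANTCA), the TATA box (TATAAA), the GC box (GGGCGG), ETS (CCGGAA), an E-box (CAGGTG) and a steroid receptor site (AGAACA).
KLK5, chr19:50953039-50953288, minus strand: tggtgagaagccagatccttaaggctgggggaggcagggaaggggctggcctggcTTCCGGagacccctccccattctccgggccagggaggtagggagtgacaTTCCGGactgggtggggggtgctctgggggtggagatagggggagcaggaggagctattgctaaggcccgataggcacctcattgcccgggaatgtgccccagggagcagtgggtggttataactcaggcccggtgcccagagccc
KLK6, chr19:50969592-50969841, minus strand: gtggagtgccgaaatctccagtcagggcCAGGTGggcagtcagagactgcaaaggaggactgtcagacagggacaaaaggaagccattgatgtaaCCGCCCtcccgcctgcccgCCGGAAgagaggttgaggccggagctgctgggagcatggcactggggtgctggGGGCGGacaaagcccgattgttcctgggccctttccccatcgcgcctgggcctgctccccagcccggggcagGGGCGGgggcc
KLK7, chr19:50984065-50984314, minus strand: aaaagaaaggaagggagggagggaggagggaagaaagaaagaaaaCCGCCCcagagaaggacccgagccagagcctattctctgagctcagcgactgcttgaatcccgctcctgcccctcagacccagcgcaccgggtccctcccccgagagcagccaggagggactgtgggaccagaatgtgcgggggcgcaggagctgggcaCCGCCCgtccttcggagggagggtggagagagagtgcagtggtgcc
KLK10, chr19:51019862-51020111, minus strand: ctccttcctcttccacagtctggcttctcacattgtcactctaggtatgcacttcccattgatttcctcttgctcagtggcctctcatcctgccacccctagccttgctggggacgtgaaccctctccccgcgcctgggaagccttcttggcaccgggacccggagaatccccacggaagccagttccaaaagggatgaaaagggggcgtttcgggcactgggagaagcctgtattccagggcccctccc
Of the 7 genes, 6 had a window in the table. KLK7 had 3 windows, and KLK10, KLK11 and KLK13 had 2 each. For each gene only the window nearest its GENCODE 5' end was used, with a start site 314 bases from that end for KLK10. An ETS match was found in 3 of these 6 (KLK5, KLK6 and KLK13), against 17.2% of all 35116 windows. GC boxes were found in KLK6, KLK7 and KLK13, 3 of 6, against 45.0% of all windows. KLK6 and KLK11 held an E-box, against 20.6%. The 300-base windows of all 6 genes lacked the AP-1, TATA box and AGAACA letters, which 7.71%, 11.5% and 14.8% of all windows hold. The window used for KLK10 had no match to any of the 6 motifs. These matches describe letters in a short window and say nothing of binding.

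Whether EGF-treatment changed the level of these genes was asked first. Of the 7 genes, 5 passed the filter on low counts. KLK5, KLK6, KLK7, KLK8 and KLK10 were all higher than in the untreated control at 12 h and at 24 h, and KLK5, KLK6, KLK8 and KLK10 also at 48 h and 72 h, while KLK7 was back near its control level. Relative to the control, 5 of 5 tested genes were called higher at 12 h (edgeR quasi-likelihood test, Benjamini-Hochberg adjusted p under 0.05 over all 16522 genes tested), where 32.9% of all genes tested were called higher and 36.5% lower. At 24 h, 5 of 5 were called higher against 29.2% of all genes higher and 29.6% lower. At 48 h, 4 of 5 were called higher, against 24.0% of all genes higher and 21.8% lower, and at 72 h again 4 of 5, against 30.6% higher and 31.0% lower. The median log2 fold change of the 5 genes was 1.84, 1.37, 1.24 and 1.37 at the 4 times in turn, where the median of all genes tested lay between -0.05 and 0.01. The 4 comparisons share the same control libraries. Because the genes were chosen with earlier results of these data known, the values of all genes are no neutral measure for them.

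**Figure D1:**
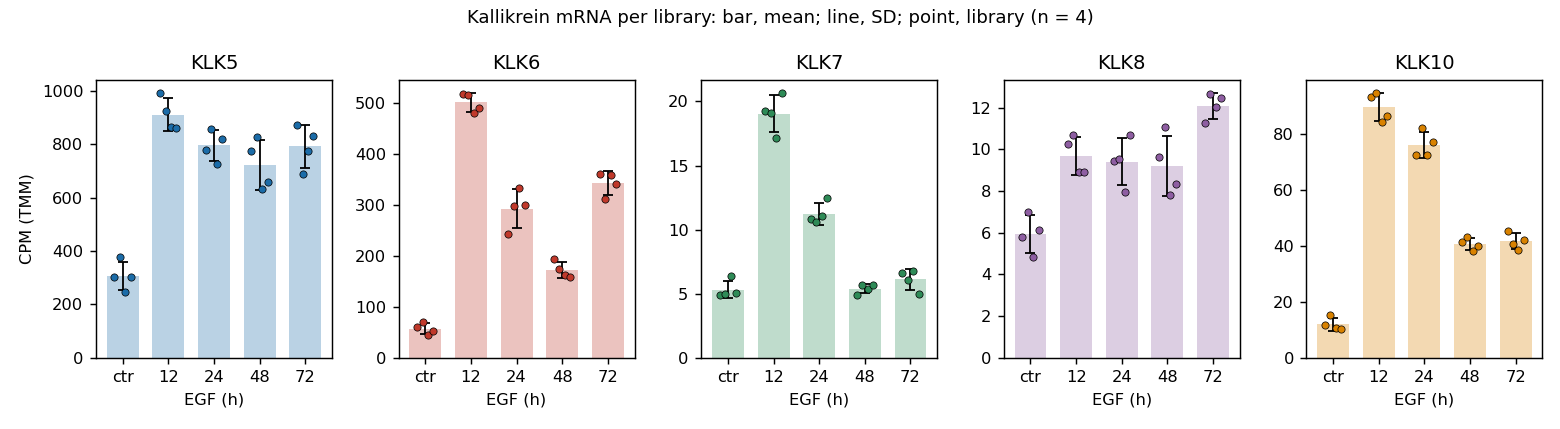
CPM of KLK5, KLK6, KLK7, KLK8 and KLK10 (y axis, a separate scale for each gene) in control cells (ctr) and at the 4 EGF times in h (x axis); bars are means, lines the SD and points the 4 libraries of a group. KLK5, KLK6, KLK8 and KLK10 lie above all control libraries at every time, whereas KLK7 overlaps the control libraries at 48 h and 72 h.

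KLK5, the trypsin-like protease that can activate other kallikreins, was the most abundant. Its control libraries stood at 304, 377, 246 and 302 CPM. After 12 h of EGF they stood at 993, 924, 866 and 863 CPM, and after 24 h at 779.7, 859.9, 727 and 819 CPM. No treated library overlapped the control range. The values were 777, 827, 632.5 and 658 CPM at 48 h and 873, 689, 775 and 832 CPM at 72 h. KLK5 was thus 2.97-fold higher at 12 h (log2 1.57, SE 0.11, adjusted p = 6.06e-12), and the fold at 72 h was 2.58 (log2 1.37, SE 0.11, adjusted p = 8.91e-11). Between treatment times its level was not called different, with log2 differences of -0.19 (adjusted p = 0.117) from 12 to 24 h, -0.14 (adjusted p = 0.282) from 24 to 48 h and 0.13 (adjusted p = 0.349) from 48 to 72 h, and of -0.20 (adjusted p = 0.0894) between 72 and 12 h. When only the 2 groups compared were fitted, KLK5 was called lower at 24 h than at 12 h (-0.18, adjusted p = 0.0110) and at 72 h than at 12 h (-0.19, adjusted p = 0.0277), and both were also called with factors per gene from the authors' normalized values (adjusted p = 0.0441 and 0.0399).

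KLK6, a trypsin-like protease also known from the nervous system, showed the largest rise of the 5 at 12 h. It stood at 60.3, 71.1, 44.05 and 53.4 CPM in the control libraries and at 518, 515, 480.4 and 491 CPM after 12 h. That was 8.76-fold (log2 3.13, SE 0.12, adjusted p = 1.15e-16). The treated libraries held 242, 297, 333 and 299.5 CPM at 24 h, 194, 175, 162 and 158 CPM at 48 h and 361, 311, 358 and 342 CPM at 72 h. KLK6 therefore fell and rose again, and at each step the 4 libraries of the one time lay wholly below or above those of the other. The step from 12 to 24 h was -0.77 on the log2 scale (SE 0.11, adjusted p = 2.23e-06), that from 24 to 48 h -0.77 (SE 0.11, adjusted p = 3.18e-06) and that from 48 to 72 h 0.99 (SE 0.11, adjusted p = 1.5e-07). At 72 h the level was 5.99-fold that of the control and still lower than at 12 h, by a log2 difference of -0.55 (SE 0.11, adjusted p = 9.14e-05).

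KLK10, a family member with little known protease activity, rose nearly as far and then settled. The control libraries had 11.8, 15.2, 10.5 and 10.4 CPM, and those at 12 h had 93.15, 94.4, 84.2 and 86.3 CPM, a 7.46-fold rise (log2 2.90, SE 0.10, adjusted p = 1.35e-17). At 24 h the values were 72.5, 81.9, 72.4 and 77.2 CPM. They were 41.45, 43.2, 38.0 and 39.75 CPM at 48 h and 45.3, 40.6, 38.5 and 42.1 CPM at 72 h, so that the last 2 times overlapped and both stayed above every control library. The fall from 24 to 48 h was -0.91 on the log2 scale (SE 0.09, adjusted p = 1.55e-08), and the difference from 48 to 72 h was 0.04 (95% interval -0.14 to 0.21, adjusted p = 0.772). A smaller difference from 12 to 24 h, -0.24 (SE 0.09, adjusted p = 0.0246), was lost when any of 4 libraries was left out, with values between -0.22 and -0.21 without EGF 12 h replicates 1 or 2 or EGF 24 h replicates 1 or 3. It was also lost with scaling by library size only (-0.10, adjusted p = 0.3615), with upper quartile scaling (-0.12, adjusted p = 0.283) and with at least 10 counts required in every library (-0.20, adjusted p = 0.0584).

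KLK7, the chymotrypsin-like partner of KLK5 in the skin, rose for a shorter time. It was read at 4.92, 4.96, 6.36 and 5.05 CPM in the control and at 19.25, 19.1, 17.2 and 20.7 CPM after 12 h, 3.57-fold higher (log2 1.84, SE 0.11, adjusted p = 3.91e-13). By 24 h it was at 10.8, 10.6, 11.0 and 12.5 CPM, still above every control library. At 48 h, values of 4.88, 5.67, 5.36 and 5.71 CPM overlapped the control libraries. The log2 fold change against control was then 0.02 (95% interval -0.20 to 0.25, adjusted p = 0.896). At 72 h the libraries had 6.63, 6.09, 6.76 and 4.98 CPM, and the log2 fold change was 0.20 (95% interval -0.02 to 0.43, adjusted p = 0.126). This value passed the threshold without control replicate 3 (0.30, adjusted p = 0.0292) and without EGF 72 h replicate 4 (0.29, adjusted p = 0.0366). It also passed with at least 10 counts required in every library (0.26, adjusted p = 0.0489). The KLK7 counts were low, at 78 to 432 per library.

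KLK8, known as neuropsin from the brain and also made in skin, had the smallest log2 fold change of the 5 at 12 h and 24 h, and at 48 h and 72 h KLK7 had a smaller one. The control libraries had 5.78, 6.98, 4.82 and 6.15 CPM, while those at 12 h had 10.25, 10.7, 8.89 and 8.895 CPM. At 24 h the values were 9.44, 9.55, 7.95 and 10.7 CPM, at 48 h 9.64, 11.05, 7.79 and 8.34 CPM, and at 72 h 11.25, 12.6, 12.0 and 12.45 CPM. Every treated library was thus above every control library, and every library at 72 h was above all of those at 12, 24 and 48 h. Folds over the control were 1.63 at 12 h (log2 0.70, SE 0.13, adjusted p = 2.78e-05) and 2.03 at 72 h (log2 1.02, SE 0.12, adjusted p = 1.69e-07). The higher level at 72 h than at 12 h (log2 0.32, SE 0.12, adjusted p = 0.0241) was lost without any 1 of EGF 12 h replicates 3 or 4 or EGF 72 h replicates 2 or 4, at values of 0.27 to 0.30.

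**Figure D2:**
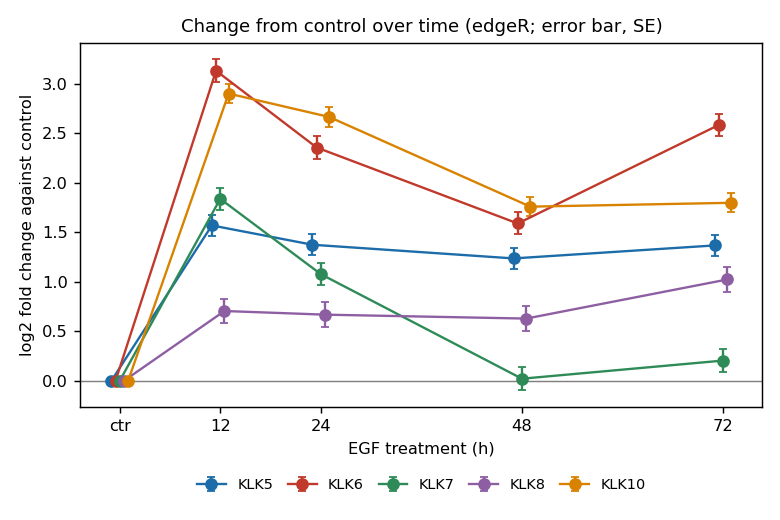
Log2 fold change against control (y axis) of the 5 tested genes by EGF time in h (x axis; ctr is the control, set at 0); error bars are the SE of the edgeR fit. KLK6 and KLK10 start near 3, KLK6 dips to 1.59 at 48 h and returns to 2.58 at 72 h, and KLK7 falls from 1.84 to 0.02 by 48 h.

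The read-through gene bears on KLK8. AC011473.4 had 5, 8, 0 and 0 counts in the control libraries and 63, 31, 42 and 27 at 12 h. At 72 h, 1 library had 68 counts and the other 3 had 0, and at 48 h the counts were 0, 52, 27 and 26, so replicates of a group differed widely. When KLK8, KLK9 and this gene were counted as 1 row, an alternative added after the data were seen, the log2 fold change against control was 1.25 at 12 h (SE 0.12, adjusted p = 3.28e-09) and 1.03, 0.90 and 1.19 at the later times. For that row the difference between 72 and 12 h was -0.06 (adjusted p = 0.655) and that between 72 and 48 h was 0.29 (adjusted p = 0.0604), so that neither of the differences between times seen in the KLK8 row was called. The table also holds the authors' normalized values, and dividing the counts by them gave factors that ranged 4.71-fold across libraries for KLK8, against 1.68 to 1.73-fold for KLK5, KLK6 and KLK10 and 2.29-fold for KLK7. With these factors, also chosen after the data were seen, the KLK8 log2 fold change at 48 h was 0.30 (adjusted p = 0.3705) and that of KLK7 at 72 h was 0.44 (adjusted p = 0.00354).

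**Figure D3:**
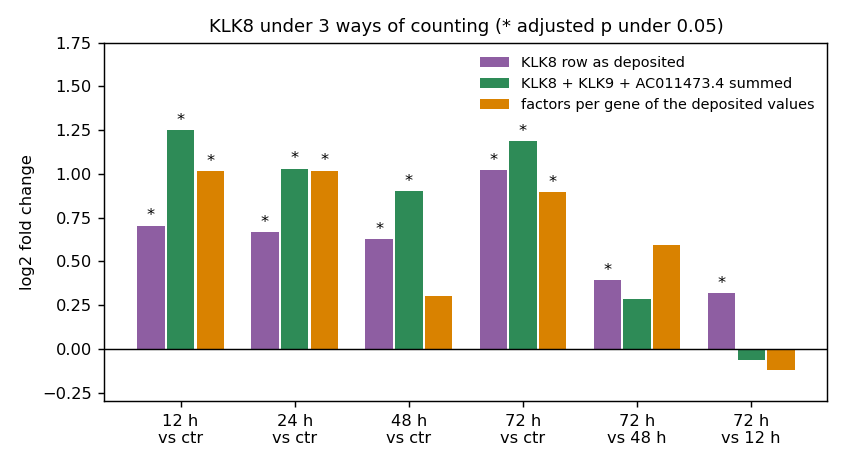
Log2 fold change (y axis) of KLK8 in 6 comparisons (x axis), from the KLK8 row as deposited, from the summed KLK8, KLK9 and AC011473.4 rows, and with factors per gene taken from the authors' normalized values; stars mark an adjusted p under 0.05. All bars against control are above 0, and the bars for 72 h against 12 h lie on both sides of 0, at 0.32, -0.06 and -0.12.

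KLK11 and KLK13 were hardly read. KLK11, a trypsin-like member, had 0 or 1 count in each library and 8 counts over all 20. KLK13 had 0 to 2 counts and 7 in all. The limit that a count of 0 allows, taken as 3 counts, came to 0.114 to 0.192 CPM per library, and covers counting error only. A change in either gene was not detectable at this depth, and no fold is given.

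The treatment times were then compared with each other. From 12 to 24 h, KLK6, KLK7 and KLK10 fell, 3 of 5 genes, where 25.9% of all genes were called lower. Without the call for KLK10, which was lost under the settings given above, 2 of 5 remained. From 24 to 48 h the same 3 fell, against 24.3% of all genes. From 48 to 72 h, KLK6 and KLK8 rose, 2 of 5, against 17.9% of all genes called higher. The call for KLK8 was lost without EGF 48 h replicate 3 (log2 0.32, adjusted p = 0.0551) and against a 1.5-fold change (glmTreat). It was also lost with summed rows (0.29, adjusted p = 0.0604) and with factors per gene (0.60, adjusted p = 0.0780). At 72 h, 3 of 5 genes were lower than at 12 h (KLK6, KLK7 and KLK10), against 32.0% of all genes, and 1 was higher (KLK8), against 35.6%. KLK7 showed the largest of these differences, at -1.63 on the log2 scale (SE 0.11, adjusted p = 6.67e-12), followed by KLK10 at -1.10 (SE 0.09, adjusted p = 1.8e-10). Of the calls at 72 against 12 h, those for KLK6 and KLK8 were lost against a 1.5-fold change (glmTreat). Besides the settings given above, the KLK8 call was also lost with no filter beyond 1 count (log2 0.28, adjusted p = 0.0721).

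Per kilobase of exon, the order of levels also shifted. In the control, KLK5 stood at 186 ± 32.4 CPM per kb (SD, n = 4) and KLK6 at 28.96 ± 5.78, far above KLK8 at 3.18 ± 0.48, KLK10 at 3.11 ± 0.58 and KLK7 at 2.19 ± 0.28. There KLK8 overlapped both KLK10 and, narrowly, KLK7, while KLK10 and KLK7 did not overlap. After 12 h, KLK5 (551 ± 37.1 CPM per kb) and KLK6 (254 ± 9.41) still led. KLK10 (23.2 ± 1.305) now stood above KLK7 (7.83 ± 0.59) and KLK8 (5.19 ± 0.50), and these 3 did not overlap. At 72 h the order was KLK5, KLK6, KLK10, KLK8 and KLK7, at 479, 174, 10.8, 6.48 and 2.51 CPM per kb, with no overlap between neighbours. KLK6 made up 14.7% of all counts of the family in the control and 32.7% at 12 h, while the share of KLK5 went from 79.1% to 59.4%.

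**Figure D4:**
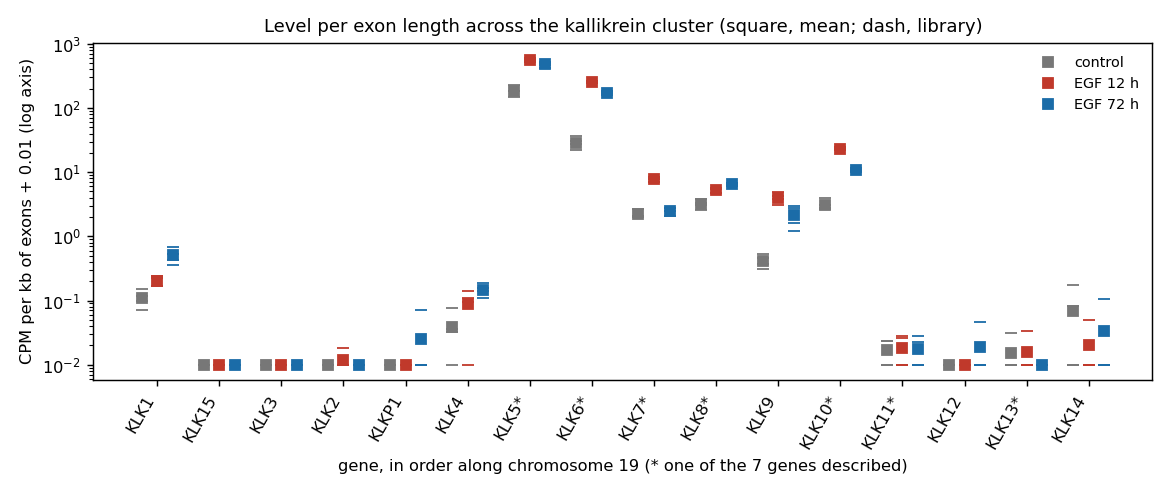
CPM per kb of exon, plus 0.01, on a log axis (y) for the 16 family genes in their order along chromosome 19 (x), in control, EGF 12 h and EGF 72 h libraries; squares are means and dashes single libraries. Means above 1 are seen in this plot only in the run from KLK5 to KLK10, and KLK11 to KLK14 lie near the bottom with KLK15, KLK2, KLK3 and KLKP1.

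Of the 9 other family genes, 2 passed the filter, both through EGF-treated libraries alone, so their calls of higher are not independent of it. KLK9, inside the run, had 5 to 9 counts in the control libraries and 51 to 85 at 12 h (log2 3.28, SE 0.36, adjusted p = 2.02e-08), a value that shares its reads with AC011473.4. KLK1, at the far end of the cluster, had 3 to 8 counts in the control and 15 to 26 at 72 h (log2 2.25, SE 0.35, adjusted p = 5.11e-06). The other 7 had at most 6 counts in any library. Within 100 kb of the cluster, 31 further genes are in the table, of which 18 had no count and 6 were tested. AC011483.1, a long non-coding RNA on the opposite strand that runs from within KLK6 to near KLK10, was called higher at every time, with log2 fold changes of 1.80, 2.83, 1.93 and 2.64 in time order and 2 to 41 counts per library. PPIAP59, a pseudogene between KLK4 and KLK5 with 5 to 27 counts per library, was also called higher at all 4 times, with log2 fold changes of 1.22 to 1.92. Outside the cluster, CTU1, beyond KLK14, was called higher at 12 h (log2 0.94, adjusted p = 0.0194) and at no later time, and AC063977.6, farther on, was called lower at 12 h (log2 -1.02, adjusted p = 0.0348) and 24 h (log2 -1.44, adjusted p = 0.00799). AC011473.4, the read-through gene, was called higher at 12 h (adjusted p = 0.0157) and 24 h (adjusted p = 0.0266), and it too passed the filter through EGF-treated libraries alone. C19orf48, beyond KLK1, was called at no time, with log2 fold changes from -0.31 to 0.16 and adjusted p from 0.0762 to 0.377.

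The genes around the kallikreins were described next, from a list of 37 inhibitors, activating proteases, receptors and substrates, 24 of which passed the filter. Of these 24, 17 were called higher and 5 lower at 12 h, where 32.9% and 36.5% of all genes tested were. The counts were 13 and 7 at 24 h, against 29.2% and 29.6% of all genes, 12 and 7 at 48 h, against 24.0% and 21.8%, and 12 and 7 at 72 h, against 30.6% and 31.0%. Their median log2 fold change was 0.78 at 12 h and 0.28 at 72 h. With DSG3, SPINK5 and SPINK6, which had no count in the control, at their lower bound, it was 0.56 and 0.28. They were set at no change where they did not exceed the floor of 3 counts. These 3 genes passed the filter through EGF-treated libraries alone and could only be called higher. DSG3 and SPINK6 are among those called higher at 12 h, and all 3 at the later times. CDSN and CAMP, at 7 to 9 and 1 to 4 counts per control library, also passed the filter through EGF-treated libraries alone. Their calls of higher are therefore not independent of the filter. The list was also chosen with earlier results known, so the shares of all genes are no neutral measure for these counts.

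Of 9 inhibitors tested, 7 were called higher and 1 lower at 12 h, and 6 higher and 2 lower at 72 h, beside the same shares of all genes, 32.9% higher and 36.5% lower at 12 h and 30.6% and 31.0% at 72 h. SPINK5, which encodes the skin inhibitor of KLK5 and KLK7, had 0 counts in all control libraries and 22 to 40 at 72 h, at least 11.9-fold higher against a floor of 3 counts per library. SPINK6, a related inhibitor, had 0 counts in the control and 12 to 21 at 72 h, at least 5.54-fold higher. Both were at or below 3 counts in every library at 12 h, when KLK6, KLK7 and KLK10 stood at their highest. SPINK6, with 0 to 3 counts per library there, is 1 of the 7 called higher at 12 h (adjusted p = 0.0425). Both genes are among the 6 called higher at 72 h, and without a control count neither could be called lower. A2ML1, a broad protease inhibitor, went from 0.908 ± 0.032 CPM (SD, n = 4) to 44.5 ± 2.38 CPM at 72 h (log2 5.60, SE 0.13, adjusted p = 2.83e-20). SERPINA3, an inhibitor of chymotrypsin-like proteases, went from 23.9 ± 1.94 to 231 ± 13.6 CPM (log2 3.28, SE 0.08, adjusted p = 2.91e-20). SERPINB6 was highest at 24 h, 2.24-fold over the control (adjusted p = 1.37e-13). SLPI, a secreted inhibitor, fell by 0.95 on the log2 scale at 72 h (SE 0.10, adjusted p = 2.7e-08).

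Among proteases, 3 of 4 were called higher and 1 lower at 12 h, and 2 and 1 at 72 h, where all genes gave 32.9% higher and 36.5% lower at 12 h and 30.6% and 31.0% at 72 h. PLAU, the urokinase gene, was at 7.73 to 11.4 CPM in the control and 32.6 to 33.8 CPM at 12 h (log2 1.86, SE 0.12, adjusted p = 3.63e-12), and TMPRSS2, a membrane protease, was lower at 12 h (log2 -1.11, SE 0.08, adjusted p = 1.44e-11). The 2 tested protease-activated receptors differed. F2RL1, a receptor that trypsin-like kallikreins can cut, was 2.09-fold higher at 12 h (adjusted p = 1.34e-11) and was not called at 24, 48 or 72 h, with log2 fold changes of 0.11, -0.07 and 0.08. F2R, the thrombin receptor, fell by 2.41 on the log2 scale at 72 h (SE 0.09, adjusted p = 4.42e-17), from 41.8 to 7.85 CPM.

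Substrates were called higher in 6 of 9 cases and lower in 2 at 12 h, and higher in 4 and lower in 3 at 72 h, where all genes gave 32.9% higher and 36.5% lower, then 30.6% and 31.0%. DSG3, a desmoglein of stratified epithelium, had 0 counts in every control library and 125 to 242 counts at 24 h, at least 69.3-fold higher against the same floor. It is among the substrates called higher at 12 h and at 72 h, and without a control count it could not be called lower. CDSN, the corneodesmosin gene, had 7 to 9 counts in the control libraries and 53 to 127 at 72 h (log2 3.44, SE 0.21, adjusted p = 1.36e-12). CAMP, the cathelicidin gene, had 1 to 4 counts in the control and 14 to 18 at 24 h (log2 2.92, SE 0.43, adjusted p = 2.83e-06). CDSN and CAMP passed the filter through EGF-treated libraries alone. DSG2, an abundant desmoglein, was 2.30-fold higher at 12 h (adjusted p = 3.71e-09). DSC1, a desmocollin, had 7 to 16 counts in the control and 0 to 2 at 12 h (adjusted p = 1.69e-05). It was not called at the later times, with 2 to 9 counts at 24 h, 12 to 20 at 48 h and 3 to 10 at 72 h.

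**Figure D5:**
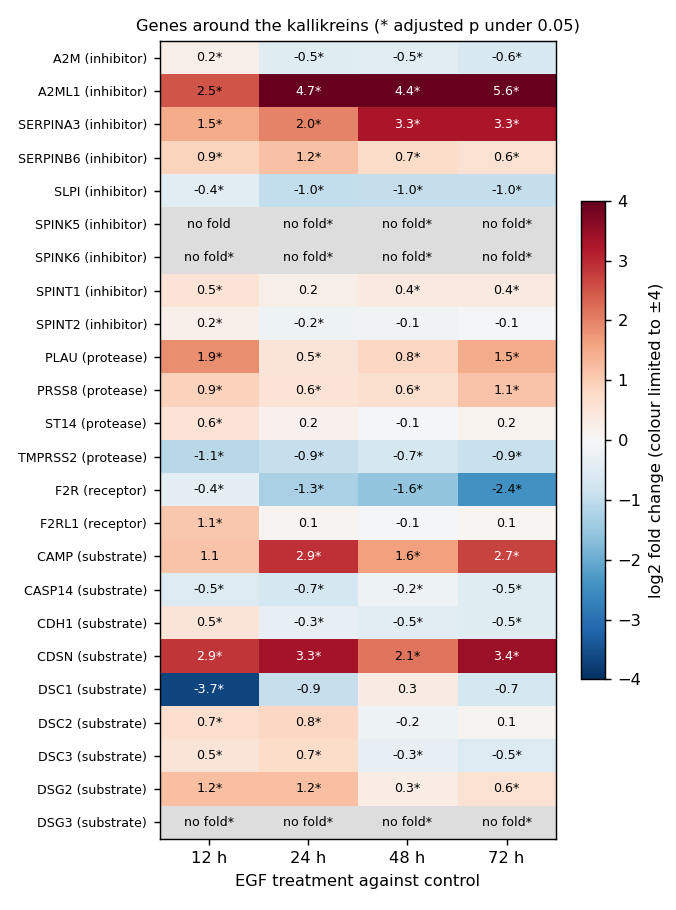
Log2 fold change against control of the 24 tested genes of the list (rows, with their group in brackets) at the 4 EGF times (columns); colour is limited to 4 either way, stars mark an adjusted p under 0.05, and grey cells are genes with no count in the control, for which no fold is given. A2ML1 and SERPINA3 are above the control at all 4 times, F2R is below it at all 4, and F2RL1 is called at 12 h alone.

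Across the 20 libraries, the log CPM of KLK5, KLK6 and KLK10 moved closely together, with Pearson correlations of 0.931 to 0.943, while KLK7 and KLK8 gave 0.232. Among 13875 genes, those whose log CPM followed the mean profile of the 5 genes most closely were RAC2 (r = 0.988), ITGA3 (0.987), ITGA5 (0.986), ELFN2 (0.985) and MGLL (0.984). ITGA5, an integrin chain, had mean levels of 2.16, 23.5, 14.4, 7.32 and 13.0 CPM in the control and at the 4 EGF times in turn. These correlations are descriptions over libraries that fall into 5 groups and share treatment and depth.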

How the data were processed

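Per the labels, mRNA libraries were made from 20 samples of MDA-MB-468 cells with the Lexogen Corall kit, and the submitters' processing notes name hg38 and DESeq2. The aligner, counter and strand setting are not given in the sources used here. The deposited values used were estimated counts per gene that the authors had rounded to whole numbers. The authors' normalized values are a score with factors that differ by gene and were used only in an added alternative. Columns of the authors' own comparisons (fold changes and p-values) were not used.

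Counts were fitted with edgeR 4.0.16 (limma 3.58.1, R 4.3.3): filterByExpr kept 16522 genes, TMM scaling, 1 mean for each of 5 groups over 20 libraries, glmQLFit with robust settings and glmQLFTest, with p-values adjusted by Benjamini-Hochberg across the 16522 genes. The SE is the log2 fold change divided by the square root of F. CPM used TMM-scaled library sizes, and CPM per kb the merged GENCODE 29 exons, to which 58036 gene IDs matched. In simulated data the fit called 158 of 196 changed genes and 4 unchanged ones, with 16034 genes tested. Far more genes were called at 12 h in the real data (11465 of 16522), so that simulation does not test the scaling. Alternatives were other scalings and filters, DESeq2 1.42.0, glmTreat against a 1.5-fold change, a replicate block, only the 2 groups compared, and each library left out.

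The members and the lists of pathway and marker genes were chosen with earlier results of these data known. The pathway genes named are the 12 with the largest change against control at any time, and SLPI, TMPRSS2 and F2RL1 were named after their values were seen. Replicates were grouped as labelled, and promoter sequences are from RefSeq.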

Additional observations from a re-analysis of the deposited data

Results flagged for a closer look

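Of 25 groups of 4 libraries tested for a library far from the rest, 1 stood out: KLK7 in control replicate 3, at 6.36 CPM, whose gap to the next library was 0.914 of the range of the group. Chance flags about 1 in 20 such groups.

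The effect of EGF against the shared control differed between treatment times, by an edgeR test of the difference, in 12 cases. From 12 to 24 h the log2 difference was -0.24 for KLK10, -0.77 for KLK6 and -0.76 for KLK7. From 24 to 48 h it was -0.91 for KLK10, -0.77 for KLK6 and -1.06 for KLK7. From 48 to 72 h it was 0.39 for KLK8 and 0.99 for KLK6. Between 72 and 12 h it was -1.10 for KLK10, 0.32 for KLK8, -0.55 for KLK6 and -1.63 for KLK7. In these 4 comparisons in turn, 3, 3, 2 and 4 of the 5 genes were called. Among all genes tested, 53.7%, 50.2%, 35.7% and 67.6% were called in either direction, so the counts lie near those shares.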

How the results depend on the processing

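Of 768 recomputed log2 fold changes of the 5 genes, 710 kept their direction and their side of the threshold, 27 lost the call, 10 gained one and 21 changed sign. Against control, all calls of KLK5, KLK6 and KLK10 held in every alternative run, and KLK8 lost its calls at 12, 24 and 48 h against a 1.5-fold change (glmTreat). Under library size scaling, which moved the median of all genes at 12 h from -0.05 to -0.34, the sign changed for KLK8 from 12 to 24 h (0.10) and 24 to 48 h (0.11), KLK5 from 24 to 48 h (0.0156) and from 12 to 72 h (0.0067), and KLK10 from 48 to 72 h (-0.0490). Upper quartile scaling gave 0.0776, 0.0294 and -0.00326 for the KLK8 and KLK10 values among these. With at least 10 counts in every library, KLK8 from 12 to 24 h was 0.0025. With factors per gene it was 0.0017, and KLK8 at 72 against 12 h was -0.12, or -0.0617 with summed rows. Leaving out 1 library gave -0.0142 to 0.12 for KLK7 at 48 h, -0.11 to 0.0313 for KLK8 from 12 to 24 h and -0.14 to 0.0344 from 24 to 48 h. Of these results, KLK8 at 72 against 12 h had been called, and the others had not. The cause was not tested.

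Against a 1.5-fold change (glmTreat), 0 of the 5 genes were called between 12 and 24 h, 2 at an unadjusted p under 0.05, where edgeR and DESeq2 each called 3. That test called 1 from 48 to 72 h and 2 at 72 against 12 h, since it asks for a larger change. Of the pathway genes it called 11, 8 and 12 at 12, 48 and 72 h. The share of all genes called was not worked out for that test, so these counts have no background. With factors per gene, 11 pathway genes of 17 tested were called at 48 h, where 4334 of all 11956 genes tested were. The count called from 48 to 72 h was 1 to 2 with 1 library left out, and 1 without EGF 48 h replicate 3. Same-numbered deviations correlated at -0.24 to 0.35, and over 0.1 in 4 of 32 pairs. They were highest for replicates 2 and 3 of EGF 48 h against control (0.33 and 0.35). Differently numbered libraries were not compared, so this check cannot decide whether replicate numbers pair the samples. With the replicate block, 5, 5, 4 and 4 genes were called against control in time order, as without it, and 11577 against 11465 of all genes at 12 h. Depth limits KLK11 and KLK13, with at most 2 counts a library.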
